A study of Mus musculus with 12 samples.

Results

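Sgk1, Sgk3, Nedd4l, Ndrg1, Ndrg2 and Ndrg4 code for 2 kinases of the SGK family, a ubiquitin ligase that SGK1 phosphorylates, and 3 members of the NDRG family. Their transcripts were followed in mouse embryonic fibroblasts (MEFs), primary cells grown out of embryos, in the presence or absence of dexamethasone (Dex), a synthetic glucocorticoid. All non-control probes named for these genes, or for the older symbols Sgk and Sgkl, were taken, which gave 11 probes for the 6 genes out of 41174 distinct probes on the array. Of these, 9 were tested, because they were among the 30934 probes that were well above background in every array of 1 or more groups, as flagged by the scanning software. The 2 others were a Sgk1 probe well above background on 0 of 12 arrays and a Sgk3 probe well above background on 1 of 12 arrays. For each gene the tested probe with the highest mean is called its leading probe, and any other is called probe 2.

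The study compared cells homozygous for a GR-C3 knockin with wild-type (WT) cells. In the knockin, the second exon of the glucocorticoid receptor gene Nr3c1 keeps the start codon of the C3 translational isoform while the start codons of the other isoforms are changed, so that the cells carry C3 as their receptor. The WT cells came from intercrosses of the same line, whose hygromycin cassette had been removed by Flp recombination in an earlier generation. The 4 groups were GR-C3 cells given 100 nM Dex for 6 h, GR-C3 cells given vehicle for 6 h, WT cells given 100 nM Dex for 6 h and WT cells given vehicle for 6 h, with 3 one-colour arrays each. All cells came from embryos at day 12.5 on a C57Bl/6 background, and the knockin mice descend from 1 ES cell clone. The labels call the replicates biological and do not give their embryo or culture of origin. The p-values therefore describe the spread among the arrays at hand, which may be technical.

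Glucocorticoids bind their receptor in the cytoplasm, and the receptor then enters the nucleus and binds DNA elements near its target genes. SGK1, the serum- and glucocorticoid-regulated kinase, is a classical product of such a target gene. It is an AGC-family kinase that is switched on by phosphorylation through mTORC2 and PDK1. SGK1 phosphorylates the ubiquitin ligase NEDD4L, which in epithelia slows removal of the sodium channel ENaC from the cell surface, and it phosphorylates NDRG1 and NDRG2, whose phosphorylation is widely read as a sign of SGK activity. SGK3 is a related kinase that binds endosomal membranes. NDRG1 is known as a stress-, hypoxia- and N-myc-responsive gene, NDRG2 as an astrocyte-rich member of the family, and NDRG4 as a member abundant in brain and heart. The arrays measure RNA, and the phosphorylation state of these proteins was not measured.

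Each value is a log2 level, meaning the log2 of a probe's processed signal after subtracting the same array's 75th percentile, and each change is a difference of 2 such levels, given ± its standard error. One array of vehicle-treated WT cells, replicate 1, stood apart from its group. On it Fkbp5, a standard glucocorticoid target, lay at 1.51, against -2.64 and -2.74 on the other vehicle-treated WT arrays and 1.89 to 2.15 in Dex-treated WT cells. It was also the one array of its slide and of its scan day. Results of the 6 genes are therefore given for the 11 arrays without it and for all 12 arrays, and its place was not tested against any cause. The array was singled out after its values were seen, among them that of a gene that answers Dex. The p-values on 11 arrays follow that choice and do not account for it, above all those that use vehicle-treated WT cells. Nr3c1 itself lay at 1.39 to 1.53 in Dex-treated GR-C3, 1.83 to 1.86 in vehicle-treated GR-C3, 1.06 to 1.26 in Dex-treated WT and 1.20 to 1.80 in vehicle-treated WT cells. On every array 9 of 9 fibroblast markers were well above background. The same held for 6 of 6 astrocyte, 4 of 4 oligodendrocyte and Schwann, 4 of 4 skeletal muscle and 5 of 5 macrophage markers. It did not hold for all neuronal, cardiomyocyte, epithelial, endothelial or erythroid markers. This criterion alone therefore does not set fibroblasts apart. The fibroblast markers, with their linear levels added, were brighter on every array than those of each other cell type listed. The 75th percentile signal was 884 to 1821, and each array had 70.7 to 78.4% of its probes well above background.

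The probes that carry the main results are shown by the first 30 of their 60 bases, so that a reader can see which stretch of each transcript was measured. Positions are those given in the files for mouse build mm7, and exons of that build were not looked up. The leading Sgk1 probe lies at chr10:21732425-21732484 on the plus strand, the Ndrg1 probe at chr15:67013174-67013233 on the minus strand, and the Ndrg2 probe at chr14:47239243-47239302 on the minus strand. No base is capitalised.
Sgk1 probe: cagttgtcagtcaaagccgttggtgttttc
Ndrg1 probe: agttgctagaggaaaagtagttatgcccta
Ndrg2 probe: tcaggagaaggtttgctggtgggtcagcga
The Sgk1 probe that stayed at background lies at chr10:21631585-21631644, upstream of the leading probe on the same strand.

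Start-site windows from RefSeq (build GRCm38.p6, 250 bases before to 50 bases after each annotated start) matched 3 of the 6 genes, with 6 windows for Sgk1, 3 for Ndrg2 and 4 for Ndrg4. They were searched for the palindromic glucocorticoid response element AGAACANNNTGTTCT, which reads the same on both strands, and for its 6-base arm AGAACA on either strand, which the palindrome contains. The palindrome was found in 1 of the 13 windows, and it belonged to Sgk1. Over all 32851 windows of the table it was found in 3, or 0.00913%, the others being those of Acnat2 and Gm35041. The Sgk1 element lies 189 to 175 bases before the start of that window, at 21993701 to 21993715 of chromosome 10, and begins 965 bases before the most downstream annotated Sgk1 start. The 250 bases before the start, chr10:21993640-21993889 on the plus strand, are shown because they hold the palindrome, which is in capitals.
Sgk1 upstream window: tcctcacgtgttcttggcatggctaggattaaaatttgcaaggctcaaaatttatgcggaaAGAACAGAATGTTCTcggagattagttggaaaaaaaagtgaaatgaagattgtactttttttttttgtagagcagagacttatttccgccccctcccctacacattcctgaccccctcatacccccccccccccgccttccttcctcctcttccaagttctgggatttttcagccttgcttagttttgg
The single arm was found in 3 of the 6 Sgk1 windows, in 0 of the 3 Ndrg2 windows and in 0 of the 4 Ndrg4 windows, against 19.0% of all windows. A match describes letters in the window and is not a measured binding site.

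Sgk1, the glucocorticoid-induced kinase, was called as raised by Dex in both genotypes once the array that stands apart was left out, with a smaller change in GR-C3 cells. Its level was 5.20, 5.03 and 5.01 in Dex-treated GR-C3 cells, against 4.28, 4.22 and 4.43 in vehicle-treated GR-C3 cells. It was 5.50, 5.36 and 5.43 in Dex-treated WT cells, against 5.44, 3.40 and 3.35 in vehicle-treated WT cells. The Dex and vehicle arrays of GR-C3 cells did not overlap, and those of WT cells did so only through vehicle replicate 1, which lay 100% of the way from its partners to the WT Dex mean. In GR-C3 cells 27.5% of all probes had no overlap, and in WT cells 43.4% had none without that array. On 11 arrays the change was 0.77 ± 0.092 in GR-C3 cells, or 1.71-fold (limma, Benjamini-Hochberg adjusted p = 0.00198), and 2.06 ± 0.10 in WT cells, or 4.17-fold (adjusted p = 2.79e-06). With all 12 arrays it was 0.77 ± 0.43 (adjusted p = 0.539) and 1.37 ± 0.43 (adjusted p = 0.175), and neither was called. WT vehicle replicate 1 does not enter the GR-C3 change, which is 0.77 in both sets, but it widens the spread shared by all groups. When only the groups compared were fitted on 12 arrays, 3 of the 9 tested probes were called for Dex in GR-C3 cells, against 773 of all 30934. In a bulk sample, a change in the share of cells of a type and a change in RNA per cell cannot be told apart.

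The slides allowed a smaller comparison within a single slide. On the slide with 3 Dex-treated and 1 vehicle-treated GR-C3 arrays, the Dex difference of Sgk1 was 0.65, that of Ndrg1 0.61 and that of Ndrg2 0.64. On the slide with 1 Dex-treated and 2 vehicle-treated WT arrays, these differences were 2.13, 1.17 and 1.5. With slide as a block on 11 arrays, the Dex change of Sgk1 was called in GR-C3 cells (adjusted p = 0.0439) and in WT cells (adjusted p = 0.000204). The changes of Ndrg1 and Ndrg2 under that block were called in WT cells (adjusted p = 0.00311 and 0.00265) and not in GR-C3 cells (adjusted p = 0.0649 and 0.105).

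**Figure D1:**
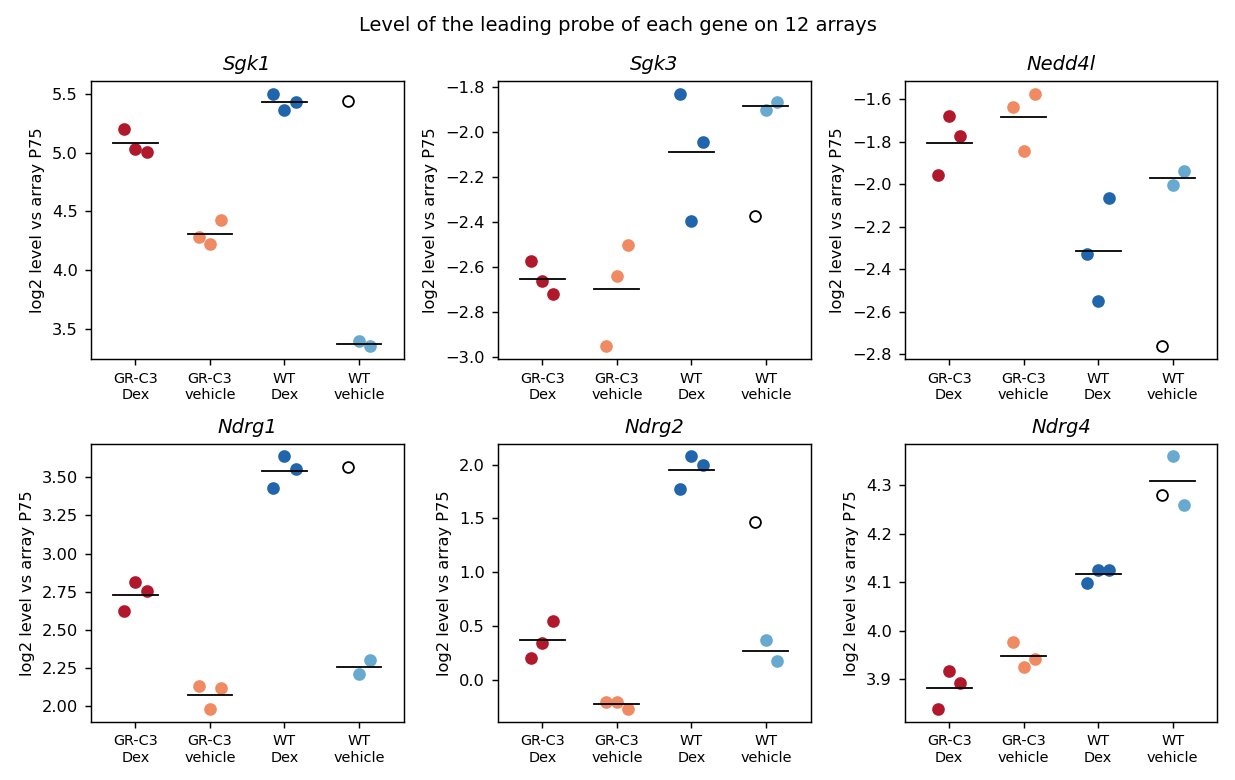
Log2 level of each leading probe relative to the 75th percentile of its array (vertical axis, a separate scale per gene) for GR-C3 Dex, GR-C3 vehicle, WT Dex and WT vehicle arrays. Each point is 1 array, the open point is WT vehicle replicate 1, and the bar is the group mean without that array. Sgk1, Ndrg1 and Ndrg2 lie highest in WT Dex cells, while Ndrg4 and Sgk3 lie lower in GR-C3 than in WT cells.

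Ndrg1, the stress-responsive SGK1 substrate, rose with Dex in the same direction. Its level was 2.62, 2.81 and 2.75 in Dex-treated GR-C3 cells, against 2.13, 1.98 and 2.12 in vehicle-treated GR-C3 cells. It was 3.43, 3.64 and 3.56 in Dex-treated WT cells, against 3.56, 2.21 and 2.30 in vehicle-treated WT cells. As for Sgk1, vehicle replicate 1 alone made the WT groups overlap, at 102% of the way to the WT Dex mean. On 11 arrays Ndrg1 rose by 0.65 ± 0.093 in GR-C3 cells, or 1.57-fold (adjusted p = 0.00511), and by 1.28 ± 0.10 in WT cells, or 2.43-fold (adjusted p = 4.95e-05). All 12 arrays gave 0.65 ± 0.28 (adjusted p = 0.431) and 0.85 ± 0.28 (adjusted p = 0.191).

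Ndrg2, the astrocyte-rich family member, was at 0.20, 0.34 and 0.55 in Dex-treated GR-C3 cells, against -0.21, -0.21 and -0.27 in vehicle-treated GR-C3 cells. It was at 1.77, 2.08 and 2.00 in Dex-treated WT cells, against 1.46, 0.37 and 0.17 in vehicle-treated WT cells. The Dex and vehicle arrays did not overlap in either genotype, with replicate 1 included, which lay 71.0% of the way to the WT Dex mean. On 12 arrays 27.5% of all probes had no overlap in GR-C3 cells and 15.7% had none in WT cells. On 11 arrays Ndrg2 rose by 0.60 ± 0.12 in GR-C3 cells, or 1.51-fold (adjusted p = 0.0251), and by 1.68 ± 0.13 in WT cells, or 3.20-fold (adjusted p = 3.65e-05). The GR-C3 call was lost when any of GR-C3 vehicle replicates 1, 2 and 3 or GR-C3 Dex replicates 2 and 3 was left out (adjusted p = 0.0526 to 0.105). All 12 arrays gave 0.60 ± 0.27 (adjusted p = 0.45) and 1.28 ± 0.27 (adjusted p = 0.0962).

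Across all 9 tested probes, 3 were called for Dex in GR-C3 cells on 11 arrays, where 2.93% of all probes were called, and 4 for Dex in WT cells, where 11.3% were. The GR-C3 calls were the increases of Sgk1, Ndrg1 and Ndrg2, and the WT calls were those increases and the fall of Nedd4l probe 2. That last probe was kept for testing only through the vehicle-treated groups, where it is higher. Dex and vehicle arrays did not overlap for 4 of the 9 in GR-C3 cells and 6 in WT cells, against 27.5% and 43.4% of all probes. On 12 arrays 0 of the 9 were called in either genotype, against 0.11% of all probes in GR-C3 cells and 0.0485% in WT cells, while 3403 and 5180 of the 30934 probes had an unadjusted p under 0.05.

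The interaction, in which the Dex change of WT cells is subtracted from that of GR-C3 cells, was tested for each probe. For Sgk1 it was -1.29 ± 0.14 on 11 arrays (adjusted p = 0.00358), and for Ndrg2 -1.08 ± 0.17 (adjusted p = 0.0233). For Ndrg1 it was -0.63 ± 0.14, which was not called (adjusted p = 0.0779) except when WT Dex replicate 1 was left out (adjusted p = 0.0278). On the log2 scale the GR-C3 change amounted to 37.4% of the WT change for Sgk1, 35.5% for Ndrg2 and 50.8% for Ndrg1 on 11 arrays, and to 56.3%, 46.5% and 76.9% on 12 arrays. So 2 of the 9 probes were called, against 0.886% of all probes. On 12 arrays the interaction was called for 0 of the 9 (adjusted p = 0.913 for Sgk1, 0.845 for Ndrg2 and 0.953 for Ndrg1) and for 0% of all probes by limma, where 1907 probes had an unadjusted p under 0.05. The Ndrg2 call was also lost under the slide block (adjusted p = 0.262) and when any of 6 arrays was left out, namely WT vehicle replicates 2 and 3, WT Dex replicate 3, GR-C3 vehicle replicates 1 and 2 and GR-C3 Dex replicate 2 (adjusted p = 0.054 to 0.142). The Sgk1 call held in each of the 11 fits that left out 1 further array (adjusted p = 0.00514 to 0.0296) and under the slide block (adjusted p = 0.041).

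**Figure D2:**
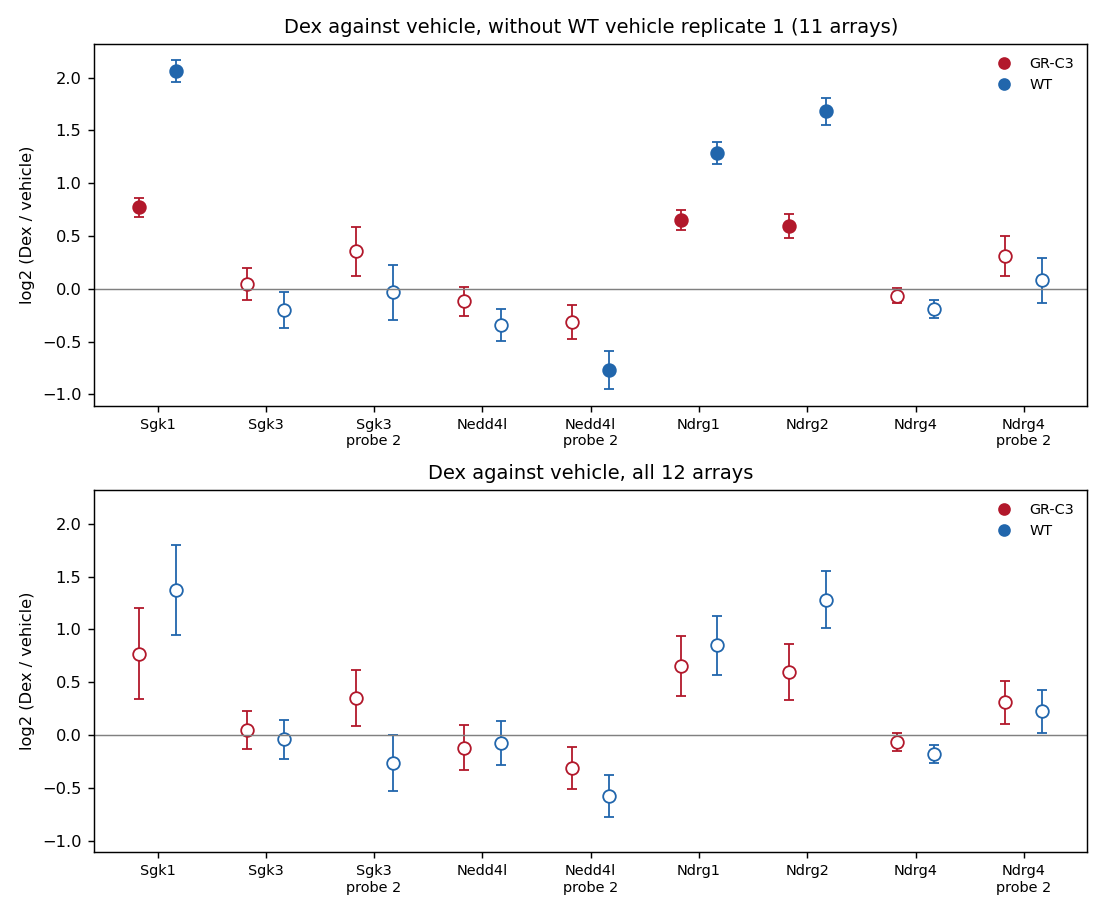
Log2 change with Dex in GR-C3 (red) and WT (blue) cells for the 9 tested probes on 11 arrays without WT vehicle replicate 1 (top) and on all 12 arrays (bottom). Points are limma estimates, bars are standard errors, and filled points have an adjusted p under 0.05. Without that array the WT changes of Sgk1, Ndrg1 and Ndrg2 are 2.06, 1.28 and 1.68, against 0.77, 0.65 and 0.60 in GR-C3 cells.

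Sgk3, the endosome-bound kinase, did not pass the test for Dex in either genotype, and its leading probe was lower in GR-C3 than in WT cells. That probe lies at chr1:10041517-10041576 on the plus strand. Its level was -2.58, -2.66 and -2.72 in Dex-treated GR-C3 and -2.95, -2.64 and -2.50 in vehicle-treated GR-C3 cells. It was -1.83, -2.39 and -2.04 in Dex-treated WT and -2.37, -1.90 and -1.87 in vehicle-treated WT cells. All 6 GR-C3 arrays lay below all 6 WT arrays. On 12 arrays 17.8% of all probes were lower in GR-C3 with no overlap under Dex, and 18.2% under vehicle. GR-C3 against WT gave -0.57 ± 0.15 under Dex (adjusted p = 0.0167) and -0.81 ± 0.17 under vehicle (adjusted p = 0.00727) on 11 arrays. On 12 arrays these were -0.57 ± 0.18 (adjusted p = 0.04) and -0.65 ± 0.18 (adjusted p = 0.0253). There the Dex call was lost without any 1 of WT Dex replicates 1 and 3, GR-C3 vehicle replicate 2 and the GR-C3 Dex arrays (adjusted p = 0.0562 to 0.127), and the vehicle call without WT vehicle replicate 2 or 3 or GR-C3 vehicle replicate 1 or 2 (adjusted p = 0.061 to 0.0954). On 11 arrays the call under vehicle was lost without WT vehicle replicate 3 (adjusted p = 0.0611), and that under Dex without WT Dex replicate 3 or GR-C3 Dex replicate 3 (adjusted p = 0.0526 to 0.0543). With slide as a block on 11 arrays neither was called (adjusted p = 0.0723 under Dex and 0.244 under vehicle). Sgk3 probe 2, at chr1:10031120-10031179, ran between -5.57 and -4.43 over the 12 arrays and was not called in any comparison, with 0.48 ± 0.23 under Dex (adjusted p = 0.129) and 0.090 ± 0.26 under vehicle (adjusted p = 0.819) on 11 arrays. The 2 probes of Sgk3 thus differ in sign between GR-C3 and WT on 11 arrays, and a direction for the gene rests on the leading probe.

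Nedd4l, the ubiquitin ligase, was at -1.96, -1.68 and -1.77 in Dex-treated GR-C3 and -1.64, -1.84 and -1.57 in vehicle-treated GR-C3 cells. It was at -2.33, -2.55 and -2.06 in Dex-treated WT and -2.76, -2.00 and -1.94 in vehicle-treated WT cells. Dex gave -0.12 ± 0.13 in GR-C3 cells (adjusted p = 0.686) and -0.34 ± 0.15 in WT cells (adjusted p = 0.177) on 11 arrays, and -0.12 ± 0.21 (adjusted p = 0.872) and -0.078 ± 0.21 (adjusted p = 0.884) on 12. Under Dex it was higher in GR-C3 than in WT cells by 0.51 ± 0.13 (adjusted p = 0.0146), with no overlap of the groups, as for 48.3% of all probes. That call was absent on 12 arrays (0.51 ± 0.21, adjusted p = 0.0908), under the slide block (0.34, adjusted p = 0.443) and without GR-C3 Dex replicate 2 (adjusted p = 0.0545). Under vehicle the difference was 0.29 ± 0.15 (adjusted p = 0.184) on 11 arrays and 0.55 ± 0.21 (adjusted p = 0.0813) on 12.

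Nedd4l probe 2 was dimmer and was well above background on 2 of 3 Dex-treated GR-C3, 3 of 3 vehicle-treated GR-C3, 1 of 3 Dex-treated WT and 3 of 3 vehicle-treated WT arrays. Its level was -6.03, -6.24 and -6.00 in Dex-treated WT cells, against -5.90, -5.62 and -5.02 in vehicle-treated WT cells. These groups did not overlap, as for 15.7% of all probes on 12 arrays. On 11 arrays it fell by 0.77 ± 0.18 with Dex in WT cells (adjusted p = 0.022), a value that includes signals near background. The probe was kept for testing only through the vehicle-treated groups, where it is higher, and this p-value does not account for that. The fitted value was -0.0087 (adjusted p = 0.974) with another background correction, normexp, and the call was also lost without WT vehicle replicate 3 or WT Dex replicate 2 (adjusted p = 0.222 and 0.0555). The leading probe's change in WT cells had the same sign and was not called. The leading probe spans chr18:65592785-65594527 and probe 2 chr18:65558543-65558602, both on the plus strand.

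Ndrg4, the brain and heart member, had levels at all 4 conditions that did not overlap and were close together. On 12 arrays the share of all probes without overlap ran from 15.7% for Dex in WT cells to 48.3% for genotype under Dex. Its leading probe, at chr8:94303561-94303620 on the plus strand, was at 3.84, 3.92 and 3.89 in Dex-treated GR-C3 and 3.98, 3.93 and 3.94 in vehicle-treated GR-C3 cells. It was at 4.10, 4.12 and 4.13 in Dex-treated WT and 4.28, 4.36 and 4.26 in vehicle-treated WT cells. Here WT vehicle replicate 1 lay between its partners. GR-C3 against WT was -0.23 ± 0.073 under Dex (adjusted p = 0.0303) and -0.36 ± 0.082 under vehicle (adjusted p = 0.0101) on 11 arrays. On 12 arrays it was -0.23 ± 0.085 (adjusted p = 0.0618) and -0.35 ± 0.085 (adjusted p = 0.0129). The call on 11 arrays was lost under Dex without WT Dex replicate 3 or any 1 of the GR-C3 Dex arrays (adjusted p = 0.0527 to 0.0875), and under vehicle without WT vehicle replicate 2 (adjusted p = 0.107). The vehicle call on 12 arrays was lost without GR-C3 vehicle replicate 2 (adjusted p = 0.0555). Dex gave -0.066 ± 0.073 in GR-C3 cells (adjusted p = 0.681) and -0.19 ± 0.082 in WT cells (adjusted p = 0.162), so that the order of the levels within each genotype is not backed by the test.

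Ndrg4 probe 2 covers 60 bases over the 189 genomic positions chr8:94295720-94295908, so it reads a spliced transcript. Its level was -2.31, -1.75 and -1.75 in Dex-treated GR-C3 and -2.11, -2.29 and -2.33 in vehicle-treated GR-C3 cells. It was -1.93, -1.29 and -1.45 in Dex-treated WT and -2.07, -1.57 and -1.71 in vehicle-treated WT cells. GR-C3 against WT was -0.38 ± 0.19 under Dex (adjusted p = 0.141) and -0.61 ± 0.21 under vehicle (adjusted p = 0.0609) on 11 arrays, of the same sign as the leading probe and not called. On 12 arrays it was -0.38 ± 0.21 (adjusted p = 0.188) and -0.46 ± 0.21 (adjusted p = 0.13).

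The genotypes were also compared in the levels of Sgk1, Ndrg1 and Ndrg2 under vehicle and under Dex. For Ndrg1 the difference under vehicle was not called on 11 or on 12 arrays. Under Dex, GR-C3 minus WT was -0.35 ± 0.092 for Sgk1 (adjusted p = 0.0141), -0.81 ± 0.093 for Ndrg1 (adjusted p = 0.000133) and -1.58 ± 0.12 for Ndrg2 (adjusted p = 7.52e-06) on 11 arrays, with no overlap for any of them. The genotypes had no overlap under Dex for 48.3% of all probes. Under vehicle it was 0.94 ± 0.10 for Sgk1, or 1.91-fold higher in GR-C3 (adjusted p = 0.000172), -0.18 ± 0.10 for Ndrg1 (adjusted p = 0.229) and -0.50 ± 0.13 for Ndrg2 (adjusted p = 0.0187). Sgk1 therefore differed in opposite directions under the 2 treatments, and Ndrg2 was lower in GR-C3 under both. The Sgk1 call under Dex was lost without GR-C3 Dex replicate 2 or 3 (adjusted p = 0.0534 to 0.0568), and the Ndrg2 call under vehicle without WT vehicle replicate 2 or 3 (adjusted p = 0.0551 to 0.154). The Sgk1 value under vehicle rests on leaving out WT vehicle replicate 1, since on 12 arrays it was 0.25 ± 0.43 (adjusted p = 0.71).

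With all 12 arrays, Ndrg2 was called lower in GR-C3 under Dex (-1.58 ± 0.27, adjusted p = 0.00162) and under vehicle (-0.90 ± 0.27, adjusted p = 0.0333), the second of which was lost without any 1 of the GR-C3 vehicle arrays (adjusted p = 0.0756 to 0.087). Ndrg1 was -0.81 ± 0.28 (adjusted p = 0.0525) under Dex, called when any 1 of the WT vehicle arrays was left out (adjusted p = 0.000133 to 0.0484), and -0.61 ± 0.28 (adjusted p = 0.141) under vehicle. Sgk1 under Dex was -0.35 ± 0.43 (adjusted p = 0.565). With slide as a block on 11 arrays, the calls under Dex held for Ndrg1 (adjusted p = 0.0105) and Ndrg2 (adjusted p = 0.00321) and not for Sgk1 (adjusted p = 0.0673). Under vehicle the block kept the Sgk1 call (0.99, adjusted p = 0.0127) and not that of Ndrg2 (adjusted p = 0.0772) or Ndrg4 (adjusted p = 0.144). No slide held both genotypes under the same treatment, so no within-slide value of a genotype difference can be had.

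Of the 9 tested probes, 6 were called for GR-C3 against WT under Dex on 11 arrays, 1 of them higher, where 38.6% of all probes were called. Under vehicle 4 were called, 1 of them higher, where 26.8% of all probes were. On 12 arrays 2 were called under Dex, against 27.7% of all probes, and 3 under vehicle, against 23.3%. The genotypes did not overlap for 8 of the 9 under Dex and 7 under vehicle on 11 arrays, against 48.3% and 64.3% of all probes. The genotype counts of these probes are thus to be read against a background in which a large share of the array differs. The median change of all probes was 0.11 under Dex and 0.086 under vehicle on 11 arrays, and 0.032 and 0.026 after quantile normalization, under which the same numbers of the 9 probes, 6 and 4, were called.

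**Figure D3:**
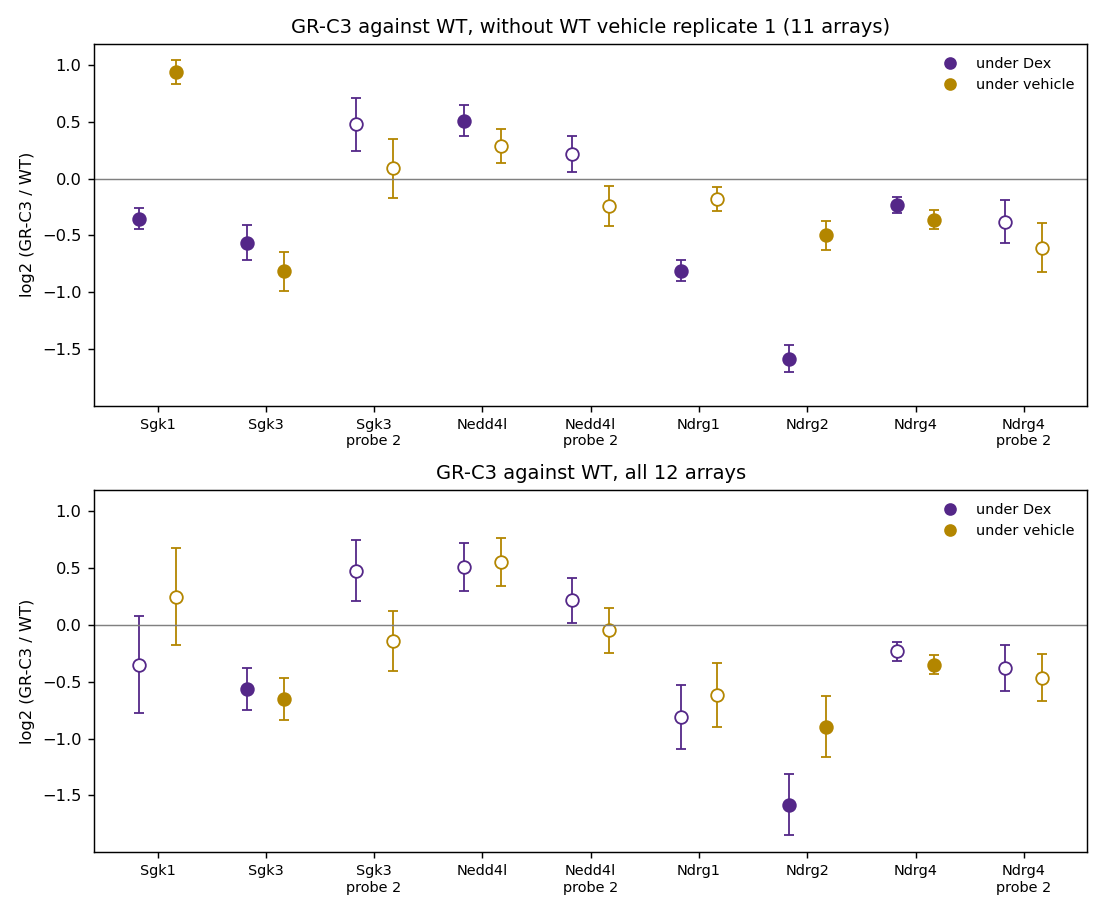
Log2 difference between GR-C3 and WT cells under Dex (purple) and under vehicle (ochre) for the 9 tested probes on 11 arrays (top) and 12 arrays (bottom). Points are limma estimates, bars are standard errors, and filled points have an adjusted p under 0.05. On 11 arrays Sgk1 lies at -0.35 under Dex and 0.94 under vehicle, while Ndrg2 lies at -1.58 and -0.50.

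Set in order without WT vehicle replicate 1, Sgk1 was highest in Dex-treated WT, then Dex-treated GR-C3, vehicle-treated GR-C3 and vehicle-treated WT cells, and no neighbouring groups overlapped. For these 3 pairs of neighbours, taken singly, 48.3%, 27.5% and 64.3% of all probes had no overlap. Ndrg1 had the order Dex-treated WT, Dex-treated GR-C3, vehicle-treated WT and vehicle-treated GR-C3 cells, and the last neighbours did not differ by the test. Ndrg2 in Dex-treated GR-C3 cells spanned 0.20 to 0.55 and overlapped vehicle-treated WT cells at 0.17 and 0.37, with GR-C3 Dex replicate 3 above both of them.

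Markers of several other cell types moved with the genotype beside these differences. The summed level of 6 astrocyte markers, all well above background on all 12 arrays, was 1.94 to 1.99 in Dex-treated GR-C3 and 2.02 to 2.15 in vehicle-treated GR-C3 cells, against 0.98 to 1.04 in Dex-treated WT and 0.80 to 1.24 in vehicle-treated WT cells. On 11 arrays 4 of these 6 markers were called higher and 1 lower in GR-C3 under Dex, where 38.6% of all probes were called. Under vehicle 2 were called higher and 1 lower, where 26.8% of all probes were called. Fabp7 had the largest differences of the 6, 2.21 under Dex and 1.78 under vehicle, while Aldh1l1 was at -0.46 under Dex and Slc1a2 at -0.91 under vehicle. As the log2 of added linear levels, the sum follows the brightest markers. The median difference of the 6 was 0.69 under Dex and 0.091 under vehicle on 11 arrays, against 0.11 and 0.086 for all probes. Ndrg2 was lower in GR-C3 under both treatments. For 4 cardiomyocyte markers kept of 6 the sum was 0.50 to 0.56 in Dex-treated GR-C3 and 0.40 to 0.50 in vehicle-treated GR-C3 cells, against -0.22 to 0.042 in Dex-treated WT and -0.66 to 0.30 in vehicle-treated WT cells. For 6 neuronal markers kept of 7 it was 2.65 to 2.71 and 2.19 to 2.36 in Dex- and vehicle-treated GR-C3 cells, against 1.99 to 2.22 and 1.78 to 2.04 in Dex- and vehicle-treated WT cells. Ndrg4 was likewise lower in GR-C3. Sums for oligodendrocyte and Schwann, skeletal muscle, epithelial and endothelial markers were higher in GR-C3 too, and among the epithelial and endothelial markers Krt18 (2.48 under Dex and 2.15 under vehicle) and Kdr (2.40 and 1.30) differed most. For skeletal muscle the calls were Acta1 (0.62 and 0.87) and, under Dex, Myod1 (0.71). Krt14 went the other way under Dex (-0.88, adjusted p = 0.00747). Sums for fibroblast and macrophage markers, and the level of the 1 erythroid marker kept, overlapped between the genotypes under both treatments. Single markers still differed on 11 arrays, where 38.6% and 26.8% of all probes were called under Dex and vehicle. Of 9 fibroblast markers 3 were called lower in GR-C3 under Dex and 2 under vehicle, with 0 higher. Of 5 macrophage markers 1 was called higher and 1 lower under Dex, and 0 higher and 2 lower under vehicle. Cdh1 (epithelium) and Cdh5 (endothelium) were at background on all arrays. The part of these markers in the genotype differences was not tested.

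Genes around the SGK kinases and NDRG proteins gave context. Of a list of 30 such genes 29 were tested, and Scnn1b was too dim. On 11 arrays Dex raised 2 and lowered 1 of the 29 in GR-C3 cells, where 2.93% of all probes were called, with a list median of -0.033 against 0.0092 for all probes. In WT cells it raised 3 and lowered 2, where 11.3% of all probes were called, with a list median of 0.13 against 0.0032 for all probes. On 12 arrays the list had 1 call, the increase of Wnk1 in GR-C3 cells (adjusted p = 0.0385), and 0 in WT cells. Of all probes 0.11% were called there in GR-C3 cells and 0.0485% in WT cells. Each other call for Dex named from the list thus rests on leaving out WT vehicle replicate 1. For GR-C3 cells that array changes only the spread shared by all groups, and the size of the Dex change stays the same.

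Tsc22d3 codes for the glucocorticoid-induced leucine zipper protein GILZ, which in epithelia acts together with SGK1 on ENaC. Its level was 3.57, 3.56 and 3.73 in Dex-treated GR-C3 cells, against 1.44, 1.43 and 1.16 in vehicle-treated GR-C3 cells. It was 5.05, 4.93 and 4.55 in Dex-treated WT cells, against 5.31, 2.18 and 1.99 in vehicle-treated WT cells. It rose by 2.28 ± 0.14 in GR-C3 cells (adjusted p = 3e-05) and by 2.76 ± 0.16 in WT cells (adjusted p = 5.68e-06) on 11 arrays. On 12 arrays these changes were 2.28 ± 0.66 (adjusted p = 0.226) and 1.69 ± 0.66 (adjusted p = 0.243).

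The WNK kinases control salt transporters and signal to SGK1, and Wnk4 answered Dex differently in the 2 genotypes. Wnk4 lay at -2.31, -2.53 and -2.50 in Dex-treated GR-C3 cells, against -2.54, -2.43 and -2.61 in vehicle-treated GR-C3 cells. It lay at -0.73, -0.40 and -0.42 in Dex-treated WT cells, against -0.50, -2.37 and -2.56 in vehicle-treated WT cells. On 11 arrays the Dex change was 0.082 ± 0.12 in GR-C3 cells (adjusted p = 0.755) and 1.95 ± 0.13 in WT cells (adjusted p = 1.69e-05). The interaction of -1.87 ± 0.17 was called (adjusted p = 0.00166), as the 1 call in this list, where 0.886% of all probes were called. On 12 arrays the Wnk4 change in WT cells was 1.29 ± 0.41 (adjusted p = 0.182) and the interaction -1.21 ± 0.58 (adjusted p = 0.825). Wnk1 rose by 0.85 ± 0.11 in GR-C3 cells (adjusted p = 0.00366), and its WT change of 0.42 ± 0.13 was not called (adjusted p = 0.0656), nor was its interaction (adjusted p = 0.293).

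Mycn, the N-myc transcription factor after which the NDRG family is named, fell by 0.65 ± 0.11 with Dex in GR-C3 cells (adjusted p = 0.0148) on 11 arrays. In WT cells it was well above background on 0 of 3 Dex arrays and on both vehicle arrays kept, and it was at least 2.13-fold lower with Dex (adjusted p = 0.000176 for the fitted change). On 12 arrays the fitted change was not called (adjusted p = 0.274), and no bound is given. There WT vehicle replicate 1 was not well above background and lay at -6.81, below the Dex-treated WT arrays at -6.57, -6.68 and -6.46. The bound sets the bright group's mean against the higher of the probe's own signal and the lowest signal well above background on each dim array. Prr5l, a partner of mTORC2, fell by 0.69 ± 0.12 in WT cells (adjusted p = 0.00686) and was at -0.19 ± 0.11 in GR-C3 cells (adjusted p = 0.404). Mtor, the catalytic subunit of mTORC2, rose by 0.48 ± 0.093 in WT cells (adjusted p = 0.00969) and had a change of 0.33 ± 0.083 in GR-C3 cells (adjusted p = 0.071). Ndrg3, the remaining NDRG gene, had -0.054 ± 0.089 in GR-C3 cells (adjusted p = 0.793) and 0.35 ± 0.10 in WT cells (adjusted p = 0.052). It was lower in GR-C3 by -0.73 ± 0.089 under Dex (adjusted p = 0.000205) and by -0.33 ± 0.10 under vehicle (adjusted p = 0.0362) on 11 arrays.

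Between genotypes on 11 arrays, 6 of the 29 list genes were higher and 8 lower in GR-C3 under Dex, and 2 were higher and 4 lower under vehicle, where 38.6% and 26.8% of all probes were called. On 12 arrays these counts were 4 and 6 under Dex and 2 and 3 under vehicle, against 27.7% and 23.3% of all probes. The list median was -0.12 under Dex and -0.027 under vehicle on 11 arrays, against 0.11 and 0.086 for all probes. Scnn1a, the alpha subunit of ENaC, was lower in GR-C3 by -1.02 ± 0.12 under Dex (adjusted p = 0.000165) and by -0.66 ± 0.13 under vehicle (adjusted p = 0.00599). Mycn was higher in GR-C3 under vehicle by 1.44 ± 0.13 (adjusted p = 4.17e-05) and at least 3.66-fold higher under Dex (adjusted p = 1.31e-06 for the fitted change). Mycn entered the tests only through the GR-C3 groups, in which it is higher. Its genotype p-values do not account for that. Prr5, another mTORC2 partner, was higher in GR-C3 under vehicle by 0.59 ± 0.11 (adjusted p = 0.00472). Tsc22d3 was lower in GR-C3 by -1.23 ± 0.14 under Dex (adjusted p = 0.000127) and by -0.74 ± 0.16 under vehicle (adjusted p = 0.00704), neither of which was called on 12 arrays (adjusted p = 0.185 and 0.0709). Wnk4 was lower in GR-C3 under Dex by -1.93 ± 0.12 (adjusted p = 2.38e-06). The genotype differences of Scnn1a, Mycn and Ndrg3 under both treatments, of Prr5 under vehicle and of Wnk4 under Dex were called on 12 arrays too.

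Because Ndrg1 is known to answer hypoxia, 12 hypoxia-responsive genes were read beside it, all of them tested. On 11 arrays Dex raised 1 of the 12 in GR-C3 cells and 4 of the 12 in WT cells and lowered 0 in either, where 2.93% and 11.3% of all probes were called, with list medians of 0.098 and 0.20. On 12 arrays 0 were called in either genotype, against 0.11% of all probes in GR-C3 cells and 0.0485% in WT cells. Adm, coding for the peptide adrenomedullin, rose by 0.58 ± 0.094 in GR-C3 cells (adjusted p = 0.0105) and by 1.05 ± 0.10 in WT cells (adjusted p = 0.000177). Bnip3, a mitophagy receptor, had 0.35 ± 0.096 in GR-C3 cells (adjusted p = 0.0985) and rose by 1.13 ± 0.11 in WT cells (adjusted p = 0.000131). Ankrd37 had 0.44 ± 0.11 in GR-C3 cells (adjusted p = 0.0701) and rose by 1.36 ± 0.12 in WT cells (adjusted p = 9.42e-05).

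The hypoxia genes Ankrd37 and Bnip3 had called interactions of -0.92 ± 0.16 (adjusted p = 0.0341) and -0.78 ± 0.14 (adjusted p = 0.0406) on 11 arrays, and -0.29 ± 0.56 (adjusted p = 0.951) and -0.46 ± 0.31 (adjusted p = 0.864) on 12. So 2 of the 12 hypoxia genes were called for the interaction on 11 arrays, where 0.886% of all probes were. Egln3, an oxygen-sensing hydroxylase, rose by 0.37 ± 0.089 with Dex in WT cells (adjusted p = 0.0264) and had -0.14 ± 0.080 in GR-C3 cells (adjusted p = 0.39). The 8 others, Vegfa, Slc2a1, Pgk1, Ldha, Car9, Pdk1, P4ha1 and Pfkfb3, were not called for Dex in either genotype. Between genotypes, 5 of the 12 were higher and 3 lower in GR-C3 under Dex, and 5 were higher and 1 lower under vehicle, on 11 arrays, where 38.6% and 26.8% of all probes were called. On 12 arrays 3 were higher and 1 lower under each treatment, against 27.7% and 23.3% of all probes. Egln3 was higher in GR-C3 by 1.57 ± 0.080 under Dex (adjusted p = 8.2e-07) and by 2.08 ± 0.089 under vehicle (adjusted p = 5.06e-07), and Bnip3 was lower under Dex by -1.16 ± 0.096 (adjusted p = 1.59e-05).

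**Figure D4:**
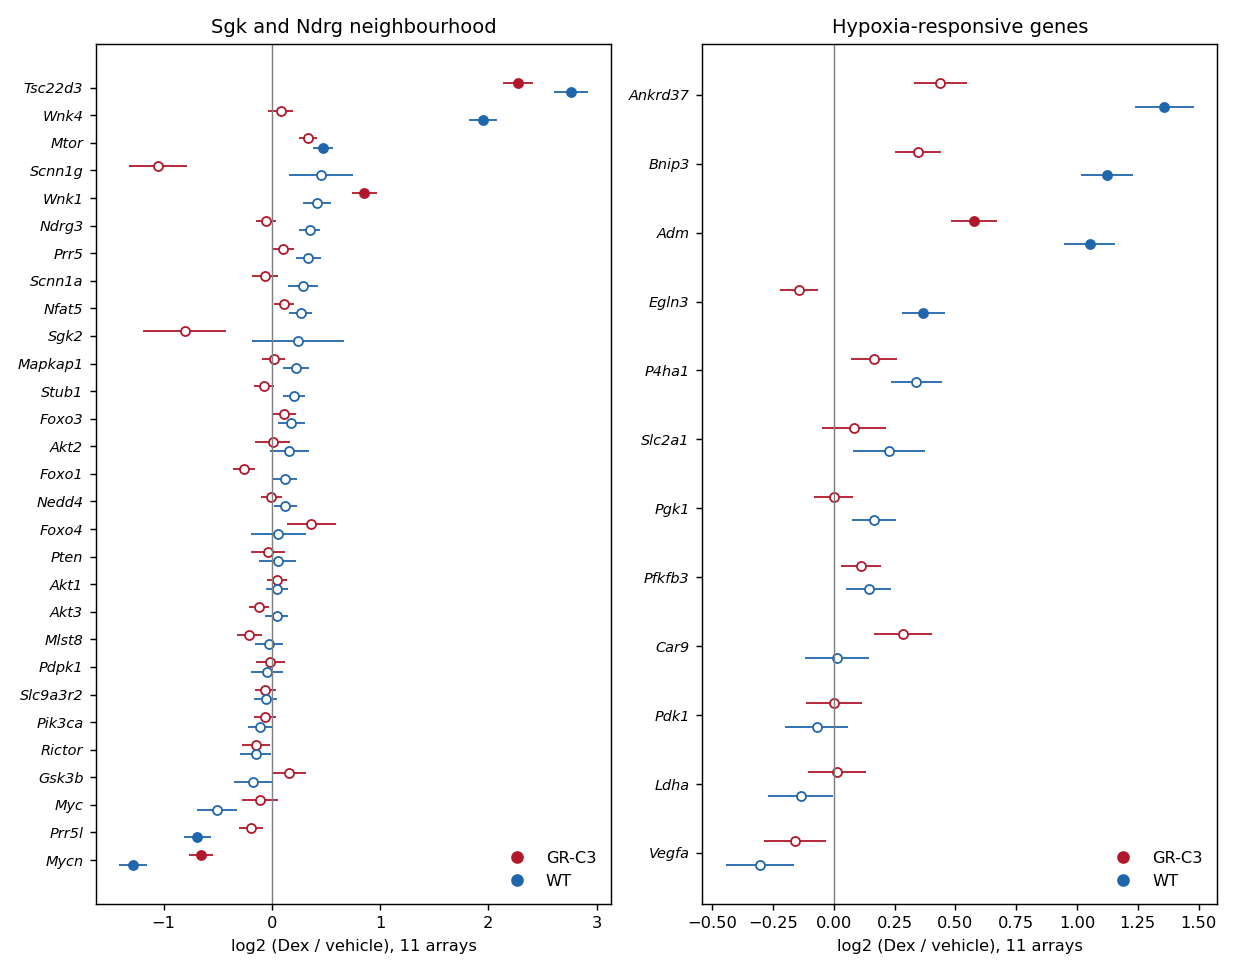
Log2 change with Dex in GR-C3 (red) and WT (blue) cells on 11 arrays for 29 genes around the SGK kinases and NDRG proteins (left) and 12 hypoxia-responsive genes (right), ordered by the WT change. Points are limma estimates, bars are standard errors, and filled points have an adjusted p under 0.05. Tsc22d3 is high in both genotypes, while Wnk4 is at 1.95 in WT and 0.082 in GR-C3 cells.

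Across the arrays, Ndrg1 and Ndrg2 ran closely together, with a Pearson r of 0.957 over 12 arrays and 0.961 over 11. Sgk1 had r = 0.809 with Ndrg1 and 0.673 with Ndrg2 over 12 arrays, and Nedd4l had r = -0.794 with Ndrg2. These values describe levels over arrays that share groups, slides and scaling. Among 15861 named genes, the one most like Sgk1 was Errfi1, a feedback inhibitor of the EGF receptor (r = 0.994 over 12 arrays and 0.994 over 11), followed by Csrnp1 in both sets. Samhd1 was next over 12 arrays, and Nfil3 over 11. The gene most like Ndrg1 was Dpep1, a dipeptidase (r = 0.993 over both sets), followed over 12 arrays by Notch4 and Rgcc. The genes most like Ndrg2 were Prrg3 (r = 0.997 over both sets) and Adcy5, an adenylyl cyclase (r = 0.993 over 12 arrays and 0.995 over 11).

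Of the remaining members, Ndrg4 was closest to Homer2, a postsynaptic scaffold protein, over 12 arrays (r = 0.969) and to Akap6, an anchoring protein of protein kinase A, over 11 (r = 0.984). Sgk3 was closest to Nxt2 over 12 and over 11 arrays (r = 0.977 in each). Nedd4l was closest to Stx6, a syntaxin, over 12 arrays (r = 0.97) and to Zkscan1 over 11 (r = 0.97).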

How the data were processed

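Total RNA from 12 samples was labelled with Cy3 and read on 12 one-colour Agilent arrays. Per the file headers, Feature Extraction 9.5.3.1 from Agilent gave the deposited spot intensity values, and the processed signal used is already background-subtracted. The deposited value table equals it for all 45018 spots within 1e-09. The scanner's outlier, saturation and well-above-background flags were used as deposited. Log2 processed signals minus the 75th percentile over non-control spots of each array were the levels. The 1639 control spots and outlier spots were left out, saturated spots kept, and spots of 1 probe averaged. Groups came from the labels. limma 3.58.1 in R 4.3.3 was fitted over all 30934 kept probes with 1 coefficient per group, followed by eBayes, and a Benjamini-Hochberg adjusted p under 0.05 was called. The script was tested on simulated data. Alternatives were another background correction, quantile normalization, other filters, slide or replicate as a block, and each array left out. Members, lists and the genes named were chosen by rule with earlier results of these data known. Named list genes are up to 4 called ones of smallest p per comparison, with their values in the other genotype. Ndrg3 was added after its values were seen, and Mtor completes the count of called genes. Sequences are RefSeq's or the files'.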

Additional observations from a re-analysis of the deposited data

Results flagged for a closer look

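The Dex change differed between the genotypes by the interaction test for 2 of the 6 genes, on the 11 arrays without WT vehicle replicate 1. There 0.886% of all probes were called. For Sgk1 the GR-C3 change minus the WT change was -1.29 ± 0.14 (limma, adjusted p = 0.00358), from 0.77 in GR-C3 and 2.06 in WT cells. For Ndrg2 it was -1.08 ± 0.17 (adjusted p = 0.0233), from 0.60 in GR-C3 and 1.68 in WT cells. On all 12 arrays these values were -0.60 ± 0.60 (adjusted p = 0.913) and -0.69 ± 0.38 (adjusted p = 0.845). Outliers within groups were not tested, since each group holds 3 arrays.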

How the results depend on the processing

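Calls of the 6 genes turned mainly on 1 array. On 12 arrays 771 of 871 recomputed values kept direction and side of the threshold, 24 calls were lost, 31 gained and 45 values changed sign. On 11 arrays, without WT vehicle replicate 1, these were 754 of 826, with 44, 7 and 21. No value that changed sign was a call, and unless a cause is named it was not tested. The 3 arrays per group, dim probes near background and the WT vehicle group of 2 arrays limit precision.

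On 12 arrays the main settings called 34 probes for Dex in GR-C3, 15 for Dex in WT, 0 for the interaction, 8570 for genotype under Dex and 7220 under vehicle. Quantile normalization gave 136 for Dex in GR-C3 and 4 probes of the 6 genes for genotype under Dex, and Sgk3 turned to -0.036 (Dex in GR-C3) and -0.0034 (interaction). Normexp gave 19 for Dex in GR-C3 and 51 for Dex in WT. With it, Dex in WT turned to 0.016 for Nedd4l, 0.11 for Nedd4l probe 2, 0.035 for Sgk3 and 0.18 for Sgk3 probe 2. The interaction turned to -0.21 for Nedd4l probe 2 and -0.069 for Sgk3 probe 2, genotype under Dex to -0.036 for Nedd4l probe 2, and under vehicle to 0.17 for each of Nedd4l probe 2 and Sgk3 probe 2. No filter on dim probes gave 2 and 0 for Dex in GR-C3 and WT and 1 member probe for genotype under Dex. Probes above background on all arrays gave 23 for Dex in WT, and 1 probe per gene gave 21 and 25 for Dex in GR-C3 and WT. Fits of only the groups compared gave 773 and 0, with 3 member probes for Dex in GR-C3, 4 for genotype under Dex and 1 under vehicle; they cannot give an interaction.

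On 11 arrays the main settings called 905 probes for Dex in GR-C3, 3497 for Dex in WT, 274 for the interaction, 11943 for genotype under Dex and 8283 under vehicle. Quantile normalization turned Sgk3 to -0.036 for Dex in GR-C3. Normexp gave 461 for Dex in GR-C3 and turned Sgk3 probe 2 to 0.21 (Dex in WT) and -0.10 (interaction), and Nedd4l probe 2 to -0.097 (interaction), -0.036 (genotype under Dex) and 0.060 (under vehicle). No filter gave 568 for Dex in GR-C3, 117 for the interaction and 1 member probe there. Only the groups compared gave 1722 for Dex in WT. The share of higher calls was 65.3% for Dex in GR-C3 and 49.5% with quantile normalization, 43.9% for Dex in WT and 56.4% with normexp, and 28.5% for the interaction, 17% with quantile normalization and 15.5% with normexp. On 12 arrays it was 82.4% for Dex in GR-C3 and 39.0% with quantile normalization, 46.7% for Dex in WT, 57.1% and 74.5% with quantile normalization and normexp, and 59.0% for genotype under Dex and 48.4% with quantile normalization.

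With slide as a block, 12 arrays gave 424 probes for Dex in GR-C3, 1253 for Dex in WT, 40 for the interaction, 4419 for genotype under Dex and 2074 under vehicle, and 1, 3, 1 and 1 member probes for Dex in GR-C3, Dex in WT, the interaction and genotype under vehicle. On 11 arrays it gave 417, 1254, 40, 4408 and 2074 probes, with 1 member probe for Dex in GR-C3, the interaction and genotype under vehicle and 2 for genotype under Dex. The block takes up the slide that holds WT vehicle replicate 1 alone. It turned Sgk3 to -0.15, Sgk3 probe 2 to -0.037 (Dex in GR-C3), Sgk3 to 0.057, Sgk3 probe 2 to 0.20, Ndrg4 probe 2 to -0.29 (Dex in WT), Sgk3 to -0.21 and Sgk3 probe 2 to -0.24 (interaction) on both sets, and on 12 arrays Nedd4l to 0.12 (interaction) and Sgk3 probe 2 to 0.25 (genotype under vehicle).

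Replicate numbers did not pair the samples: deviations of same-numbered arrays correlated at -0.228 to 0.196 and of others at -0.315 to 0.312. With a replicate block, 12 arrays gave 16 probes for Dex in GR-C3, 0 for Dex in WT, 1 for the interaction and 1 member probe for genotype under Dex, and 11 arrays turned Sgk3 probe 2 to 0.014 for Dex in WT.

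Leaving out each array in turn from 12, the probes called ran over 0 to 905 for Dex in GR-C3, 0 to 3497 for Dex in WT, 0 to 274 for the interaction, 5558 to 11943 for genotype under Dex and 4457 to 8283 under vehicle, each highest without WT vehicle replicate 1. Member probes called ran over 0 to 3, 0 to 4, 0 to 2, 1 to 6 and 0 to 4. Sgk3 ran over -0.083 to 0.14 for Dex in GR-C3, -0.20 to 0.11 for Dex in WT and -0.067 to 0.25 for the interaction, and Nedd4l over -0.34 to 0.070 for Dex in WT and -0.19 to 0.22 for the interaction. The interaction of Ndrg1 ran over -0.63 to 0.044 and of Ndrg4 probe 2 over -0.10 to 0.27. Under vehicle, Sgk1 ran over -0.11 to 0.94, Sgk3 probe 2 over -0.35 to 0.13 and Nedd4l probe 2 over -0.24 to 0.20.

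Leaving out each array from 11, probes called ran over 395 (without GR-C3 Dex replicate 2) to 1221 (without GR-C3 vehicle replicate 3) for Dex in GR-C3, 1186 (without WT vehicle replicate 2) to 6613 (without WT Dex replicate 1) for Dex in WT, 66 (without WT vehicle replicate 3) to 1717 (without WT Dex replicate 1) for the interaction and 3416 (without WT vehicle replicate 3) to 10000 (without WT Dex replicate 2) for genotype under vehicle. Member probes called ran over 1 to 3 for the interaction, 3 to 7 for genotype under Dex and 2 to 5 under vehicle. Sgk3 ran over -0.083 to 0.14 for Dex in GR-C3, Sgk3 probe 2 over -0.21 to 0.14 and Ndrg4 probe 2 over -0.053 to 0.27 for Dex in WT, and under vehicle Sgk3 probe 2 over -0.10 to 0.36 and Nedd4l probe 2 over -0.54 to 0.057.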
